A study of Mus musculus with 6 samples.

Results

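The 4 genes examined here, Rnaseh1, Rnaseh2a, Rnaseh2b and Rnaseh2c, encode the mouse RNase H enzymes, and they were chosen by gene symbol among the 49315 genes of the count table. All 4 were found once, and all 4 had enough reads to be tested. RNA was sequenced from bEND.3, a mouse brain endothelial cell line that grows without limit in culture, after Lipofectamine 2000 transfection with an antisense LNA GapmeR against the lncRNA Gm39822 (4 samples) or with a negative control antisense LNA GapmeR (2 samples), both at 100 nM. The comparison asks which transcripts change when Gm39822 is knocked down. Both groups received an LNA oligonucleotide, and no untreated cells were among the samples. The cells are 1 line, and the labels do not say whether the samples came from separate cultures, so p-values measure only the spread between these samples, which may be technical.

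RNase H enzymes cut the RNA strand of an RNA:DNA hybrid. A GapmeR has a DNA core between modified ends, pairs with its target transcript and thereby offers RNase H such a hybrid. RNase H1, the product of Rnaseh1, is a single-chain enzyme of the nucleus and mitochondria and is the form through which antisense oligonucleotides are mainly known to act. RNase H2 is a complex of a catalytic subunit (Rnaseh2a) and a pair of accessory subunits (Rnaseh2b and Rnaseh2c), and is best known for removing ribonucleotides from newly made DNA. In people, loss of RNase H2 function causes Aicardi-Goutières syndrome, an inflammatory disease with an interferon signature.

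Sequencing yielded 29261988 to 37117934 counts per library, and 20573 to 23566 genes had at least 1 count. Levels are given as CPM, the reads of a gene relative to the TMM-scaled total of its library, and 1 count corresponded to 0.0257 to 0.0365 CPM. The library GapmeR 2 stood apart from the other GapmeR libraries, with a chi-square of counts per degree of freedom of 18.6 to 25.3 against them and 5.42 to 10.7 among the others, and the main result is therefore also given without it. Endothelial markers were abundant in every library, summing to 6220 to 7060 CPM over 10 genes after the Gm39822 GapmeR and 8000 and 8230 CPM in the controls. The 12 macrophage markers summed to 227, 208, 353 and 386 CPM in GapmeR 1 to 4 and to 177 and 174 CPM in the controls, and none of the 12 was at 0 in any library. In edgeR's test, 1 endothelial marker rose and 6 of 10 fell, and 2 of 12 macrophage markers rose. Of 6 pericyte and smooth muscle markers tested 1 rose, and 5 of 8 astrocyte and neuron markers fell. The shares that passed were 70.0%, 16.7%, 16.7% and 62.5% in this order, against 45.3% of all genes tested. The median log2 fold changes were -0.31, 1.07, 0.75 and -0.88, so the macrophage markers tended higher although few passed. The counts of markers that passed moved with the setting. Scaled by library size only, 3 endothelial markers rose and 4 fell, and 3 astrocyte and neuron markers fell. The median of the astrocyte and neuron markers was -0.84 without negative control 1 and -0.96 without negative control 2. That of the endothelial markers was -0.28 without negative control 2. Without GapmeR 1 and likewise without GapmeR 2, 4 macrophage markers rose, as they did with DESeq2. The 9 pericyte and smooth muscle markers summed to 6.86 to 10.6 CPM after the GapmeR and 1.44 and 2.04 CPM in the controls, with Des and Cnn1 at 0 in some libraries. Most of this difference came from Myh11, which rose from 0.308 to 5.64 CPM. The other 5 markers tested did not pass. The 8 astrocyte and neuron markers summed to 25.4 to 41.8 CPM after the GapmeR and 52.4 and 54.3 CPM in the controls. The part of these other cell types in the results was not tested. In bulk RNA, fewer cells of a type and less RNA per cell cannot be told apart.

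The targeted transcript, Gm39822 (ENSMUSG00000110618), had 2, 1, 4 and 2 counts in GapmeR 1 to 4 and 61 and 56 counts in the controls. Every GapmeR library was below both controls, so the libraries matched their labels. Its log2 fold change was -4.82 (SE 0.41, edgeR adjusted p = 8.82e-08). The edgeR adjusted p is that of the quasi-likelihood fit, with Benjamini-Hochberg correction over the 18234 genes tested, and a gene passed when it was under 0.05. Values after ± are SDs over the 4 GapmeR or the 2 control libraries, and log2 fold changes are GapmeR over control.

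The start regions of the RNase H2 subunits Rnaseh2a and Rnaseh2c are shown, since these were the members with an entry in the promoter table and Rnaseh2a was the member whose RNA rose. Each line gives the 250 bases before the annotated start from RefSeq (GRCm38.p6), 5′ to 3′ on the gene's strand, at chr8:84966077-84966326 (minus strand) for Rnaseh2a and chr19:5601623-5601872 (plus strand) for Rnaseh2c. Of the 4 members, 2 thus matched, and Rnaseh1 and Rnaseh2b did not. Capitals mark matches on either strand to the letters searched, which were CCAAT for the box bound by NF-Y, GGGCGG for the SP family, CCGGAA for the ETS family, TTTGAA for the CHR element of cell cycle genes, TATAAA for the TATA box, and for the E2F family any of TTTCGCGC, TTTGGCGC and TTTCCCGC.
Rnaseh2a: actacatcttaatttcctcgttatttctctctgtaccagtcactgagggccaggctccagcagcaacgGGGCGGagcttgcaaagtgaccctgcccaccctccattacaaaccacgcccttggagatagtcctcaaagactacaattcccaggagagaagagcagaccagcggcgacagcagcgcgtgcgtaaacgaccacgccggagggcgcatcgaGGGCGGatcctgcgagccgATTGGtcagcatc
Rnaseh2c: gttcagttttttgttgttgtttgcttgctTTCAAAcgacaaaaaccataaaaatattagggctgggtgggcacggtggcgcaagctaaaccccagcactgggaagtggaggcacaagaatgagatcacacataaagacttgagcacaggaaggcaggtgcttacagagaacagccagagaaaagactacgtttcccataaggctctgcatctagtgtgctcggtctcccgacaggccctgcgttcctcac
The Rnaseh2a window held 2 GGGCGG matches, whose first bases lie 182 and 32 bases before the start, and 1 CCAAT match on the opposite strand, which begins 13 bases before it. The Rnaseh2c window held 1 TTTGAA match, on the opposite strand, and no other. Among 27025 mouse genes with a window of this length, GGGCGG occurred in 32.9%, CCAAT in 34.5%, TTTGAA in 16.3% and the E2F letters in 1.59%. GC content was 57.6% for Rnaseh2a and 49.2% for Rnaseh2c, with a median of 52.0% over all windows. No 2 matches overlapped, and a match describes the sequence only. The start given in the table for Rnaseh2a lies inside the span that RefSeq gives the gene.

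Rnaseh2a (ENSMUSG00000052926), which carries the active site of RNase H2, was higher in cells treated with the Gm39822 GapmeR than in controls. Its level was 33.5, 35.5, 35.1 and 33.0 CPM in GapmeR 1 to 4 and 27.1 and 24.6 CPM in negative controls 1 and 2. All 4 GapmeR libraries lay above both controls, and the groups did not overlap. The mean rose from 25.8 ± 1.76 to 34.3 ± 1.21 CPM, a log2 fold change of 0.41 (95% interval 0.24 to 0.58, edgeR adjusted p = 0.0006), or 1.33-fold. Without GapmeR 2, the log2 fold change was 0.40 (edgeR adjusted p = 0.000397).

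Rnaseh1 (ENSMUSG00000020630), the enzyme through which GapmeRs are mainly known to act, had a level of 14.2, 16.7, 16.9 and 16.5 CPM in GapmeR 1 to 4 and 15 and 15.3 CPM in the controls. GapmeR 1 was below both controls and the other 3 were above them, so the groups overlapped. The mean was 16.1 ± 1.27 CPM after the GapmeR and 15.2 ± 0.200 CPM in the controls. The fitted log2 fold change was 0.08 (95% interval -0.13 to 0.29, edgeR adjusted p = 0.526), and the interval spans 0.914-fold to 1.23-fold.

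Rnaseh2b (ENSMUSG00000021932), an accessory subunit that links RNase H2 to the replication clamp PCNA, had the widest spread of the members after the GapmeR. Its level was 13.0, 14.2, 10.5 and 12.5 CPM in GapmeR 1 to 4, and 12.4 and 12.6 CPM in the controls. The 2 controls lay inside the range of the GapmeR libraries. The coefficient of variation among the GapmeR libraries was 12.4%, against 3.54% for Rnaseh2a, while the counting error at its mean count was 4.93%. The mean was 12.6 ± 1.56 CPM after the GapmeR and 12.5 ± 0.0825 CPM in the controls. The fitted log2 fold change was 0.01 (95% interval -0.24 to 0.26, edgeR adjusted p = 0.962).

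Rnaseh2c (ENSMUSG00000024925), the accessory subunit that joins Rnaseh2b to form the scaffold on which the catalytic subunit sits, had the most reads of the members. Its level was 45.4, 54.5, 48.5 and 47.5 CPM in GapmeR 1 to 4, and 48.6 and 48.2 CPM in the controls. GapmeR 2 was the highest library and GapmeR 1 the lowest, with both controls between them. The mean was 49.0 ± 3.87 CPM after the GapmeR and 48.4 ± 0.306 CPM in the controls. The fitted log2 fold change was 0.02 (95% interval -0.15 to 0.19, edgeR adjusted p = 0.876). A change beyond 0.899-fold or 1.14-fold lies outside this interval.

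**Figure D1:**
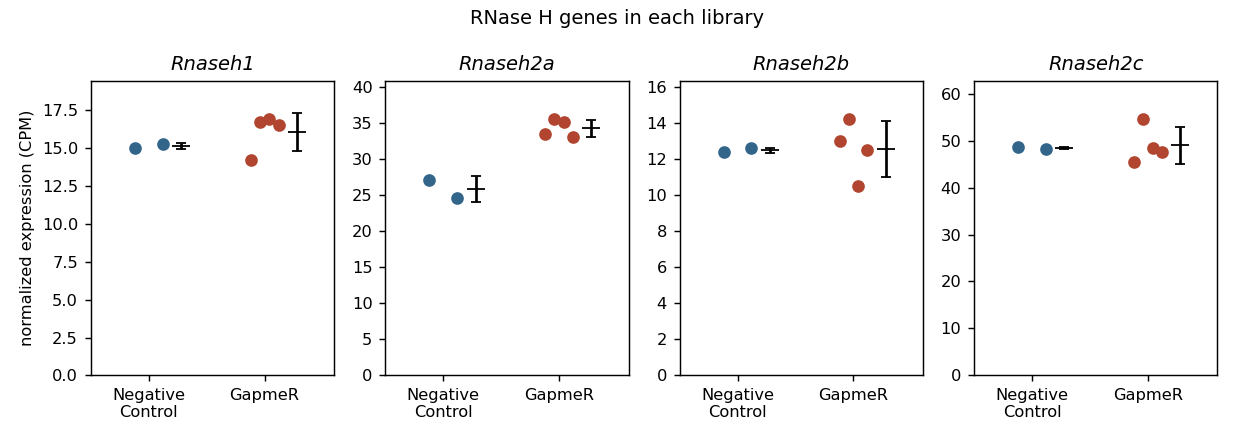
Normalized expression in CPM of each RNase H gene in the 2 negative control libraries (blue) and the 4 GapmeR libraries (red). Black bars give the mean and SD of each group, each axis starts at 0, and only for Rnaseh2a do the GapmeR libraries (33.0 to 35.5 CPM) clear both controls (24.6 and 27.1 CPM).

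Of the 4 members, 1 passed an adjusted p of 0.05, and it was higher. Over all 18234 genes tested, 45.3% passed, 25.4% as higher and 20.0% as lower, so the 1 member called of 4 is near the background of a contrast in which changes were widespread. Without negative control 2, the log2 fold change of Rnaseh2a was 0.36. Any fit that leaves out a control, here or elsewhere in the text, has 1 control and measures no spread between controls. Groups that did not overlap in CPM were found for 1 member of 4 and for 59.2% of all genes tested. Among the 6628 genes tested with a mean of 10 to 100 CPM, the range in which the members lie, 52.1% passed. The median log2 fold change of the members was 0.05, and that of all genes tested was 0.03. A larger absolute log2 fold change than that of Rnaseh2a was found in 47.3% of the genes tested, and a larger one than those of Rnaseh1, Rnaseh2b and Rnaseh2c in 86.9%, 98.6% and 97.1%. Among all genes tested, the change of Rnaseh2a is thus of ordinary size, and the other members had some of the smallest differences. These ranks include genes with few counts, and ranks among genes of like level were not taken. No member passed when a 1.5-fold change was also required. TMM and library-size scaling differ by 0.15 on the log2 scale for the median gene (0.025 against 0.173), and scaled by library size the log2 fold change of Rnaseh2a was 0.56, and of Rnaseh1, which again did not pass, 0.23 (edgeR adjusted p = 0.0798). With that scaling, 74.1% of the genes called were higher, against 55.9% with TMM.

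**Figure D2:**
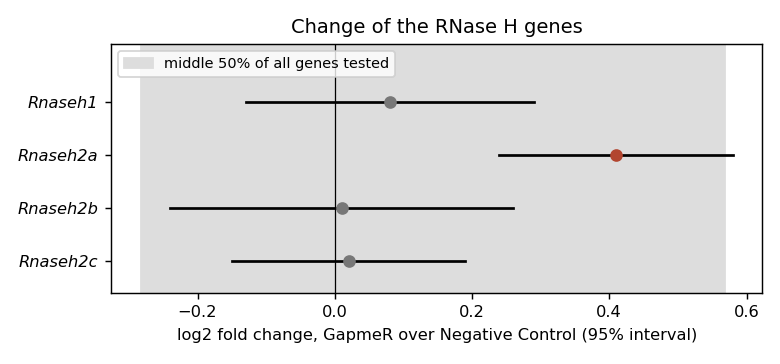
Log2 fold change of each RNase H gene with its 95% interval from edgeR's quasi-likelihood fit. The grey band spans the middle 50% of all genes tested (-0.283 to 0.569), the red point passed an adjusted p of 0.05, and the intervals of the other 3 genes include 0.

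Ratios between members within 1 library do not depend on how libraries are scaled. Counts of Rnaseh2c were 136%, 153%, 138% and 144% of those of Rnaseh2a in GapmeR 1 to 4 and 180% and 196% in the controls. Counts of Rnaseh2b were 38.8%, 40.0%, 29.9% and 38.0% of those of Rnaseh2a after the GapmeR and 46.0% and 51.1% in the controls. Counts of Rnaseh1 were 42.4%, 47.1%, 48.2% and 49.9% of those of Rnaseh2a, against 55.6% and 62.4%. In each of these 3 ratios, all 4 GapmeR libraries were below both controls. The mean log2 ratio, GapmeR minus control, differed by -0.40 for Rnaseh2c, -0.41 for Rnaseh2b and -0.33 for Rnaseh1. The 2-sided exact permutation test gave p = 0.0667 for each, also after Benjamini-Hochberg adjustment over the 3, which is the smallest value that 15 splits of 4 against 2 allow, so no ratio could pass 0.05. All 3 ratios are divided by the counts of Rnaseh2a, the member that rose, so they restate its difference and are not further evidence of it.

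**Figure D3:**
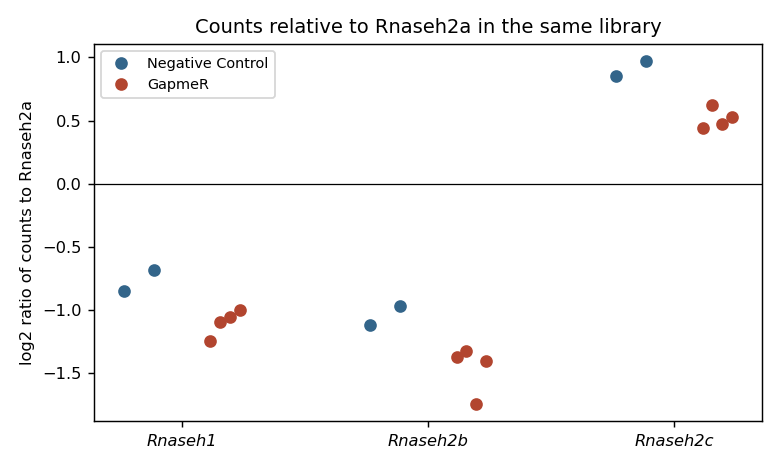
Log2 ratio of the counts of Rnaseh1, Rnaseh2b and Rnaseh2c to those of Rnaseh2a in the same library, with controls in blue and GapmeR libraries in red. In each pair of groups, the highest GapmeR library (-1.0, -1.32 and 0.62) lies under the lowest control (-0.85, -1.12 and 0.85).

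Levels of different genes were compared only per kilobase of transcript. In the controls, dividing by the merged exons of the GENCODE annotation gave 19.5 ± 0.123 CPM per kb (SD, n = 2) for Rnaseh2c, 7.02 ± 0.478 for Rnaseh2a, 2.46 ± 0.0324 for Rnaseh1 and 1.17 ± 0.00771 for Rnaseh2b. No neighbouring genes in this order overlapped in any of the 6 libraries. By merged exons, Rnaseh2c was at percentile 87.7 of the genes tested with a known length, Rnaseh2a at 73.8, Rnaseh1 at 56.9 and Rnaseh2b at 46.4. Percentiles were not taken with the other lengths. The order of the lower 3 depended on the length used. Merged exons came to 6162 bases for Rnaseh1, against 1455 in its canonical transcript, and to 10696 bases for Rnaseh2b, against 1515. Per kilobase of canonical transcript, Rnaseh1 stood at 10.4 CPM per kb in the controls, Rnaseh2a at 8.55 ± 0.582 and Rnaseh2b at 8.26 ± 0.0545, the last 2 within their spread of each other, and Rnaseh2c was again highest at 35.0. After the GapmeR, the same measure put Rnaseh2a at 11.4 ± 0.402 CPM per kb (SD, n = 4) and Rnaseh1 at 11.0 ± 0.870 (SD, n = 4), which lie within their spread of each other. The length in use in these cells was not tested.

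**Figure D4:**
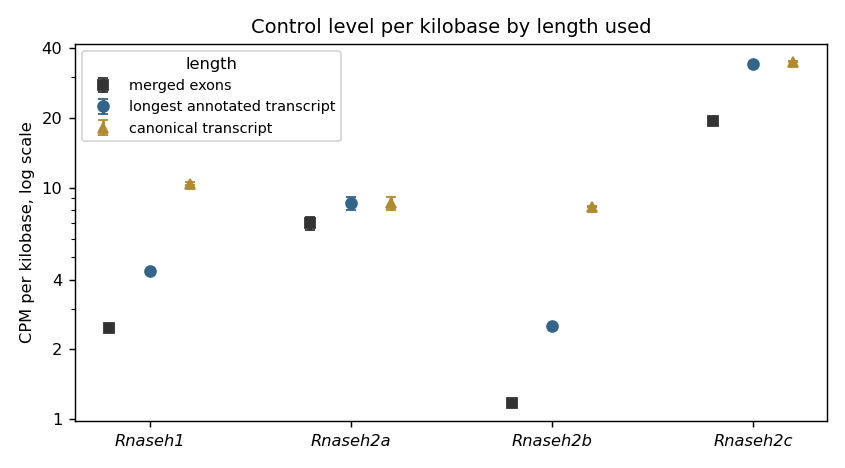
Control level of each RNase H gene in CPM per kilobase, on a log axis, by the gene length used for the division. Points are means and bars SDs of 2 controls, and Rnaseh2c is highest with every length, while Rnaseh1 and Rnaseh2b move most, from 2.46 to 10.4 and from 1.17 to 8.26.

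In mm10, the build of the authors' alignment, RefSeq places Rnaseh1 on chromosome 12 from 28649601 to 28659592, Rnaseh2a on chromosome 8 from 84956610 to 84969598, Rnaseh2b on chromosome 14 from 62332068 to 62372996 and Rnaseh2c on chromosome 19 from 5601873 to 5602959. In the GENCODE annotation of GRCm39, exons of Rnaseh2a overlap those of Prdx2, a peroxiredoxin gene on the opposite strand, over 765 bases. Prdx2 had 258 CPM after the GapmeR and 294 CPM in the controls, with a log2 fold change of -0.19 (edgeR adjusted p = 0.0548). Rtbdn, also on the opposite strand, overlaps exons of Rnaseh2a over 4 bases. It rose from 0.0678 to 0.340 CPM, a log2 fold change of 2.26 (edgeR adjusted p = 0.00656). Gm49661 overlaps Rnaseh2a on the same strand over 339 bases and had no counts. Exons of Rnaseh2c overlap those of Kat5, an acetyltransferase gene on the opposite strand, over 653 bases. Kat5 fell from 49.1 to 40.7 CPM, a log2 fold change of -0.27 (edgeR adjusted p = 0.0298). Whether the counting used strand is not given in the sources used here, so reads of the overlapping parts cannot be told apart. Rnaseh1 overlaps no other gene, and its nearest neighbour in the table, Rps7, lies 13278 bases away and had a log2 fold change of -0.06 (edgeR adjusted p = 0.538). Rnaseh2b overlaps Dleu7 and Gucy1b2 on the opposite strand, both under 0.2 CPM in either group. Junb, an AP-1 transcription factor gene 4704 bases from Rnaseh2a, fell from 143 to 92.1 CPM. The gene Gm15703 matches the Rnaseh2a transcript with 93.8% identity over 901 bases and was at 0.256 CPM after the GapmeR and 0.0678 CPM in the controls, so few reads were assigned to it.

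Over the 6 libraries, the gene whose log2 CPM followed Rnaseh2a most closely was Prkdc, which encodes the catalytic subunit of the DNA-dependent protein kinase (Pearson r = 0.998, among 12772 genes with a mean of at least 1 CPM). Prkdc rose from 5.29 to 7.70 CPM, a log2 fold change of 0.54 (edgeR adjusted p = 0.00298). 9130011E15Rik and Ttc8 came next, both at r = 0.996. Med26, a Mediator subunit gene, was most like Rnaseh1 (r = 0.985), with Hmgn2 and Ano3 next. Haus3 (r = 0.992), Wdr77 and D130040H23Rik were most like Rnaseh2b, and Rasa2, Tomm7 (both r = 0.985) and Mmadhc most like Rnaseh2c. Among the members themselves, r was between -0.235 (Rnaseh1 and Rnaseh2b) and 0.622 (Rnaseh1 and Rnaseh2c). These are descriptions over 6 points in 2 groups, which share library and depth.

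The genes that work with RNase H2 on DNA were described from a list of 15. After the nick made by RNase H2, a polymerase, the flap nuclease Fen1 and a ligase complete the repair of a ribonucleotide, and the same proteins join Okazaki fragments. Of the 15 genes, 10 rose, 1 fell and 4 did not pass, with a median log2 fold change of 0.32. The share that passed was 73.3%, and that of all genes tested was 45.3%. Dna2, a flap nuclease and helicase, rose by 0.93 on the log2 scale (SE 0.21, edgeR adjusted p = 0.00193) and Lig1, the replicative DNA ligase, rose from 48.3 ± 6.92 to 72.2 ± 5.28 CPM. The exonuclease gene Exo1 rose by 0.56. Pold4, the smallest subunit of DNA polymerase delta, was the 1 gene of the list that fell, with a log2 fold change of -0.79. Fen1 (0.13) and Pcna (-0.09) did not pass. Leaving out negative control 2, the median log2 fold change of the list was 0.25, and that of all genes tested was 0.05.

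Among 26 S phase genes, 19 rose, 1 fell and 6 did not pass, with a median log2 fold change of 0.40. Those that passed made up 76.9%, against 45.3% of all genes tested. Cdc6, which loads the replicative helicase, rose from 13.0 ± 0.238 to 27.3 ± 2.5 CPM. Rrm2, a subunit of ribonucleotide reductase, rose by 0.81 on the log2 scale and Ccne1, a G1/S cyclin gene, by 0.80. Without negative control 2, the median log2 fold change of the list was 0.33. A 1.5-fold change as well as the adjusted p was reached by 4628 of all 18234 genes tested, and the list counts are read against this. With this requirement, 4 of the 26 S phase genes rose and 1 fell, and 1 of the 15 repair genes rose and 1 fell. Of 17 R-loop factors, 4 rose by 1.5-fold and passed, and none of the 13 nucleases that degrade cut RNA met both conditions. With the same requirement, 3 of 12 mitochondrial genes rose and 2 of 7 Aicardi-Goutières or cGAS-STING genes fell. Under both conditions, 1 of 18 oligonucleotide-binding genes fell, and of 16 other endoribonucleases 3 rose and 2 fell.

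Other factors that remove or prevent R-loops, the hybrids of RNA and DNA formed during transcription, were mostly higher. Of 17 genes, 12 rose, none fell and 5 did not pass in edgeR's test, with a median log2 fold change of 0.44. Thus 70.6% passed, against 45.3% of all genes tested, of which 25.4% passed as higher. Of the 17, 1 had a lower level with an unadjusted p under 0.05 in the edgeR fit, namely Thoc5, a subunit of the mRNA export complex THO, at -0.18 (unadjusted p = 0.0227, edgeR adjusted p = 0.05). The DESeq2 and limma-voom tests also called none lower. The median log2 fold change of the list was 0.41 without negative control 1 and 0.50 without negative control 2. Brca2, a recombination gene, rose by 1.10 on the log2 scale (SE 0.13, edgeR adjusted p = 5.69e-06). Fancm, a Fanconi anaemia helicase gene, rose by 0.98, Fancd2 by 0.83 and Brca1 by 0.64.

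RNase H1 also works in mitochondria, where it removes RNA primers during replication of the mitochondrial genome. Of 12 genes of mitochondrial DNA replication and transcription, 5 rose, 2 fell and 5 did not pass, and the median log2 fold change was 0.05. The share that passed was 58.3%, beside 45.3% of all genes tested and 52.1% of those with a mean of 10 to 100 CPM. The median log2 fold change of the list was 0.06 without negative control 1 and 0.07 without negative control 2. Polg2, the accessory subunit of the mitochondrial DNA polymerase, had the largest difference of any gene in the lists of RNase H partners, from 2.13 ± 0.271 to 31.3 ± 0.830 CPM, a log2 fold change of 3.87 (SE 0.12, edgeR adjusted p = 7.41e-13). Tfb2m, a mitochondrial transcription factor gene, rose by 0.94, Polg, the catalytic subunit, by 0.60 and Polrmt, the mitochondrial RNA polymerase, by 0.46. C1qbp, whose product binds RNase H1, had a log2 fold change of -0.07 (edgeR adjusted p = 0.407).

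The other Aicardi-Goutières genes and the cGAS-STING pathway, which senses DNA and RNA:DNA hybrids in the cytosol, were mostly lower. Of 8 genes, 7 were tested, of which 4 fell, 1 rose and 2 did not pass, with a median log2 fold change of -0.43. Of those tested, 71.4% passed, against 45.3% of all genes. Tmem173, which encodes STING, fell from 36.0 ± 4.38 to 21.8 ± 3.24 CPM, and Samhd1, a nucleotide triphosphatase gene, from 250 ± 11.5 to 162 ± 15.8 CPM. Ifih1, which encodes the RNA sensor MDA5, fell by 0.50 on the log2 scale. Mb21d1, which encodes cGAS, rose by 0.45 (edgeR adjusted p = 0.00246). Trex1 had no counts in any of the 6 libraries, which, for counting error only, allows a level of up to 0.110 CPM in the shallowest. The exosome subunit gene Exosc6 likewise had no counts. Whether these zeros reflect expression or the assignment of reads to genes was not tested. Several of these genes are known to be induced by interferon.

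Proteins known to bind antisense oligonucleotides in cells numbered 18, of which 2 rose, 6 fell and 10 did not pass, with a median log2 fold change of -0.12. The share that passed was 44.4%, near that of all genes tested. Hnrnpa1, a splicing regulator gene, fell by 0.69 on the log2 scale, Nono, a paraspeckle protein gene, by 0.36 and Ncl, which encodes nucleolin, by 0.32. Scaled by library size only, 4 of these genes passed as higher and 2 as lower, so the balance of this list depended on the scaling. The median log2 fold change of the list was -0.05 without negative control 1 and -0.13 without negative control 2.

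After RNase H has cut a transcript, the fragments are degraded by the exonucleases Xrn1 and Xrn2 and by the RNA exosome. Of 14 genes, Exosc6 had no counts and was not tested. Of the 13 genes tested, 5 rose, 1 fell and 7 did not pass, with a median log2 fold change of 0.05. The share that passed, 46.2%, is near the 45.3% of all genes tested. Dis3, an exosome nuclease gene, rose by 0.44, the exosome subunit gene Exosc9 by 0.42 and Xrn1 by 0.41, while Exosc4 fell by 0.41. The nuclear exonuclease gene Xrn2 had a log2 fold change of -0.04 (edgeR adjusted p = 0.70). The median log2 fold change of the 13 genes was 0.11 without negative control 2. Among 16 other endoribonuclease genes, 7 rose, 4 fell and 5 did not pass, so 68.8% passed, against 45.3% of all genes tested. Their median log2 fold change was 0.18, and 0.26 without negative control 2. Endov, an endonuclease gene that cuts at inosine, rose from 18.8 ± 0.480 to 62.0 ± 4.01 CPM. Pop1, a subunit of RNase P and RNase MRP, rose by 0.92, and Rnase4 fell by 0.90.

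**Figure D5:**
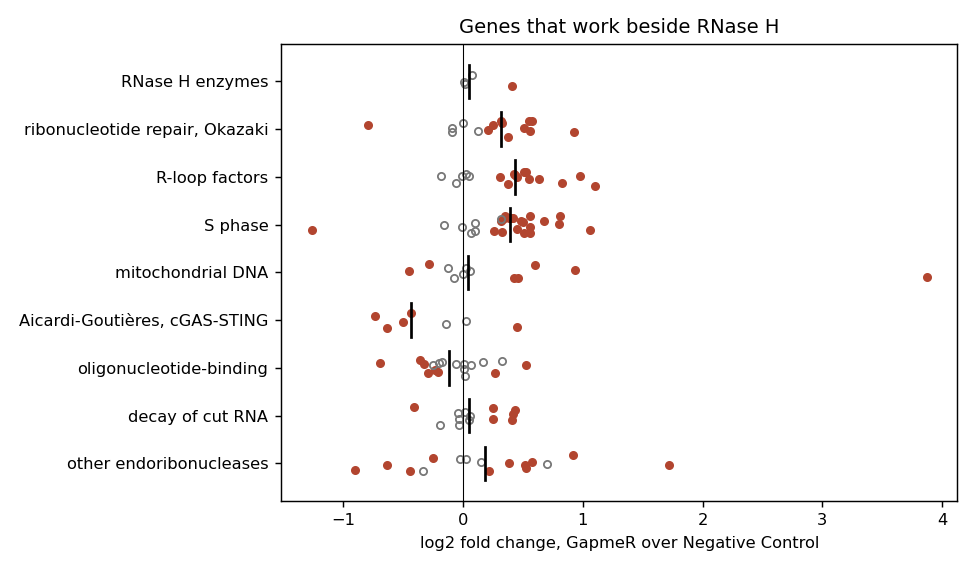
Log2 fold change of each gene tested in the RNase H enzymes and 8 lists of genes that work beside them. Red points passed an adjusted p of 0.05, open points did not, and black lines mark the medians, which were 0.32 for ribonucleotide repair, 0.44 for R-loop factors, 0.40 for S phase genes and -0.43 for the Aicardi-Goutières and cGAS-STING genes.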

How the data were processed

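Libraries were made by the authors from RNA depleted of rRNA, and paired reads were run through bcbio-nextgen, which aligned them to mm10 by STAR. The submitters' processing notes name Trimmomatic 0.36, STAR 2.5.2b and Subread 1.5.2. The deposited values are raw counts of reads per Ensembl gene, neither normalized nor filtered. Neither strandedness of counting nor the release of Ensembl used is given in the sources used here. Samples were grouped by title, and 1 column of counts that matches no sample label was not used. The paper gives n = 4 for each group, and 2 controls were analysed here.

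Genes reaching 5 counts in 2 or more samples were kept, scaled by TMM and tested with edgeR 4.0.16 (robust quasi-likelihood, Benjamini-Hochberg adjustment over all genes tested) in R 4.3.3. The standard error is the log2 fold change over the square root of F. DESeq2 1.42.0 (Wald test, as in the study), limma 3.58.1 (voom), other scalings and filters, a block by replicate number and each sample left out in turn were alternatives. Functions were tested on simulated counts. Gene models came from GENCODE vM39 on GRCm39, joined by Ensembl identifier, and similar transcripts of at least 200 bases and 90% identity from blastn 2.17.0. Intervals cover 95%. Counts of 3 or fewer allow 0.0771 to 0.110 CPM, for counting error only. Named genes were the members, the 4 largest changes passing in each list with a mean of at least 1 CPM, the 3 genes most like each member (log2 of CPM plus 0.5) and genes beside a member. Other genes named (Fen1, Pcna, Thoc5, C1qbp, Trex1, Xrn2, Exosc6) were added after their values were seen. Some genes of the lists are counted but not reported by name here. The members and lists were chosen with earlier results of these data known, and the promoter letters and the canonical length after the sequences and models were seen.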

Additional observations from a re-analysis of the deposited data

Results flagged for a closer look

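Of the 8 values checked for a GapmeR library far from the other 3, which were the CPM of the 4 RNase H genes and Gm39822 and the 3 ratios to Rnaseh2a, 1 stood out. Rnaseh1 was at 14.2 CPM in GapmeR 1 and at 16.5 to 16.9 CPM in GapmeR 2 to 4, so the gap to the nearest library was 0.842 of the range of the 4, above Dixon's 95% critical value for 4 values. Chance flags about 1 in 20 such groups. Without GapmeR 1, the log2 fold change of Rnaseh1 was 0.14 (edgeR adjusted p = 0.283).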

How the results depend on the processing

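Rnaseh2a was higher in all 13 alternatives, with a log2 fold change of 0.36 (without negative control 2) to 0.56. In the alternatives with both controls it passed, with an adjusted p of 4.78e-05 to 0.00181 from edgeR, DESeq2 or limma. With 1 control left, the spread between controls was not measured. Rnaseh1, Rnaseh2b and Rnaseh2c passed in none. With 1 sample left out at a time, the fitted change was 0.06 to 0.14 for Rnaseh1, -0.06 to 0.11 for Rnaseh2b and -0.04 to 0.05 for Rnaseh2c, turning sign in the latter 2. With the replicate block, on the 4 samples whose numbers occur in both groups, it was 0.44 for Rnaseh2a, 0.05 for Rnaseh1, 0.14 for Rnaseh2b, 0.06 for Rnaseh2c and -5.44 for Gm39822, and 7798 genes passed. No member's call changed. Deviations from the group mean correlated at -0.0692 and 0.135 between same-numbered samples. With 2 controls, their deviations mirror each other, so the 2 values are not separate checks and cannot settle pairing. The main fit did not pair samples by number. Gm39822 fell in the 10 alternatives that could test it. The filter removed it with at least 10 counts in every sample and without either control. Requiring a 1.5-fold change left 0 of the 4 members and 4628 of all genes, and leaving out samples left 5232 (without negative control 2) to 8719 genes. Without negative control 1, 5791 passed. The ratios to Rnaseh2a kept their sign with each sample left out (-0.46 to -0.33 for Rnaseh2c, -0.49 to -0.32 for Rnaseh2b, -0.41 to -0.25 for Rnaseh1). Control levels per kb of longest transcript were 4.38 (Rnaseh1), 8.55 (Rnaseh2a), 2.51 (Rnaseh2b) and 34.1 (Rnaseh2c), and per kb of canonical transcript 10.4, 8.55, 8.26 and 35.0. With 2 controls, ratios cannot reach 0.05.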
